A study of Mus musculus with 6 samples.

Results

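Toll-like receptors and the proteins that carry their signal were followed in BaF3, an interleukin-3-dependent cell line of the mouse that the labels call pro-B. The set comprised 10 genes, taken by gene symbol from both deposited expression tables, out of 18946 genes listed in either table. They were the receptors Tlr1, Tlr2, Tlr4, Tlr6, Tlr7 and Tlr9, the co-receptor Cd14, the transport protein Unc93b1, the adaptor Myd88 and the inhibitory kinase-like protein Irak3. Of the 10, 9 were in both tables and 7 were tested, that is, had FPKM of at least 1 in at least 2 of the 6 libraries. Tlr1 and Tlr7 were below that level, and Cd14 was listed only in the table of replicate 1.

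The ICN group was nucleofected with pmax-Clover-ICN, a plasmid that encodes the fluorescent protein Clover and the intracellular region of the receptor Notch1. The CTdel group received pmax-Clover-CTdel, the mutated ICN plasmid, and the con group received pmax-Clover alone. All cells were kept in RPMI with 10% serum and 2 ng/mL mouse interleukin-3, and were sorted 24 h after nucleofection. Each group had 2 libraries, numbered 1 and 2, with polyadenylated RNA measured as FPKM (fragment counts divided by transcript length and by the mapped total). The sources used here give neither the change in CTdel nor the plasmid dose or sorting gate. Whether replicates were separate cultures is not stated, and p-values therefore reflect only how far these libraries scatter. FPKM summed to between 489693 and 507894 per library, and read totals are unknown. Relative depth, read from the lowest nonzero FPKM of equally long small RNA genes, was 0.963 to 1.08 of con replicate 1. Notch1 had FPKM of 190 and 888 in ICN libraries and 84.9 and 25.4 in CTdel libraries, against 0.89 and 1.72 in con. Its log2 change was 7.51 in ICN and 4.39 in CTdel (limma adjusted p = 0.103 and 0.0947), neither past the threshold of 0.05. With both forms together it passed (5.95, limma adjusted p = 0.0336). A change that did not pass in these libraries can thus be large. Of the 9 B-lineage markers checked, Cd79b reached 13.4 and Cd79a 3.15, while Ebf1 stayed at or below 0.02 and Rag1 at or below 0.03. Pax5, listed only for replicate 2, had 0.05 in ICN, 0.25 in CTdel and 0.04 in con, so the labelled pro-B identity showed few of its defining transcripts.

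Toll-like receptors recognise conserved molecules of microbes. Those on the cell surface bind bacterial wall components: TLR2 pairs with TLR1 or TLR6 to bind lipopeptides, and TLR4 binds lipopolysaccharide with MD-2 and the co-receptor CD14. TLR7 and TLR9 sit in endolysosomes, where they sense single-stranded RNA and unmethylated CpG DNA, and depend on UNC93B1 to leave the endoplasmic reticulum. Most of these receptors signal through the adaptor MYD88 to IRAK kinases, which leads to NF-kB and interferon regulatory factors, while IRAK3 (IRAK-M) restrains that step. B cells and myeloid cells are known for carrying different sets of these receptors.

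Promoter windows of 6 of the 10 genes were in the RefSeq table for GRCm38.p6, each from 250 bases before to 50 bases after an annotated start. The windows of Tlr2, Tlr6, Tlr9 and Myd88 are shown, since these are genes whose levels in both ICN and both CTdel libraries lay above both con libraries. Unc93b1 met the same rule but had no window in the RefSeq table. They were searched on both strands for the words GGG-NN-TTTCC (NF-kB), GAGGAA (PU.1), GAAA-NN-GAAA (interferon response element), TGGGAA (RBPJ, the DNA-binding partner of the Notch intracellular part) and TGANTCA (AP-1), where N is any base. Capitals mark the matches, which in the Tlr2, Tlr6 and Tlr9 windows include reverse complements, and all windows run 5′ to 3′ along the gene's strand.
Tlr2, chr3:83841559-83841858, minus strand: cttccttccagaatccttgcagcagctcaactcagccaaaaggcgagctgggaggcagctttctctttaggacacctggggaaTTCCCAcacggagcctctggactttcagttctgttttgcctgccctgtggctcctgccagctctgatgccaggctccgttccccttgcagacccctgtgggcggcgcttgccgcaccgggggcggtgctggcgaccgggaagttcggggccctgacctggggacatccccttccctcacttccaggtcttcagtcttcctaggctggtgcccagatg
Tlr6 (1 of 2 annotated starts), chr5:64959117-64959416, minus strand: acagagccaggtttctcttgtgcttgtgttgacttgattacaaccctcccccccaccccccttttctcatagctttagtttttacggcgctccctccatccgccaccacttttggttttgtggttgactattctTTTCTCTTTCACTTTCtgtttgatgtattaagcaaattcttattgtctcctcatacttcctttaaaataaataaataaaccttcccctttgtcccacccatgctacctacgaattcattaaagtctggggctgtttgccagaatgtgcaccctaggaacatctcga
Tlr9, chr9:106222348-106222647, plus strand: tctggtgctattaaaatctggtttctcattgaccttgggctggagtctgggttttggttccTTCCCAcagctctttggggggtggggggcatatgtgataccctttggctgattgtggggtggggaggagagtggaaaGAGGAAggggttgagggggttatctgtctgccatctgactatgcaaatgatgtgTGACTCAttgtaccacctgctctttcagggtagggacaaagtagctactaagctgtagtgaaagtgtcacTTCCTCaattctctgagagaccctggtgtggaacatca
Myd88, chr9:119339969-119340268, minus strand: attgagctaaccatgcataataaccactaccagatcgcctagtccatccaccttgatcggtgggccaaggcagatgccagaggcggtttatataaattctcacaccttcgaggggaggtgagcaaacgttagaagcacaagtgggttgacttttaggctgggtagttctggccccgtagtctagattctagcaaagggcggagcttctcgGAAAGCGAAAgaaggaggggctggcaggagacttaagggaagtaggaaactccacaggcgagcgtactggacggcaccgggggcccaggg
The Tlr2 window held 1 RBPJ word, beginning at −167 from the start, a word found in 25.6% of all 32851 windows. The Tlr6 window held 2 overlapping interferon response words, beginning at −116 and −110, and the Myd88 window 1, at −40, a word in 3.44% of all windows. The Tlr9 window held 2 PU.1 words (28.3% of all windows), 1 RBPJ word and 1 AP-1 word (7.81%). Of the windows not shown, the other one of Tlr6 held an RBPJ word at −44, 1 of the 2 of Tlr1 a PU.1 word at −23, and 1 of the 2 of Irak3 a PU.1 word at 33 and an RBPJ word at −96. The NF-kB word, in 1.63% of all windows, was in 0 of the 9 windows of the 6 genes. Only this spelling was searched, so the count does not show that other NF-kB spellings are absent. A stretch such as GGGGAATTCC, which runs into the RBPJ word of the Tlr2 window, is not counted by it. A match describes the letters of a window and shows no binding, and binding was not measured here.

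Tlr2 was the receptor with the highest level in every ICN and CTdel library. Its FPKM was 14.2 and 10.2 in ICN and 23.0 and 14.9 in CTdel, against 2.89 and 2.85 in con (gene on chromosome 3, 83836272 to 83841824, GRCm38). The 4 libraries with an ICN plasmid were all above both con libraries, and both CTdel libraries were above both ICN libraries. On the log2(FPKM + 1) scale, which understates changes of low genes, Tlr2 rose in CTdel by 2.33 ± 0.23 (SE) with a 95% interval of 1.77 to 2.90 (limma adjusted p = 0.020). In ICN the change was 1.75 ± 0.23 (SE) with adjusted p = 0.111, so it did not pass the threshold of 0.05. With both forms set together against con it rose by 2.04 ± 0.20 (SE; limma adjusted p = 0.0272). With each of the 6 libraries left out in turn, the CTdel change stayed between 2.08 and 2.59. Without a library of the group not compared, a change equals that of the compared groups fitted alone. The 2 leave-outs of that group are therefore not separate checks, here and for the other genes below. The value in ICN passed without ICN replicate 1 (limma adjusted p = 0.00765) or 2 (0.0259) and without CTdel replicate 1 or 2 (both 0.0301), and did not pass without con replicate 1 (0.0995) or 2 (0.106). In bulk RNA a change in the share of cells that carry a transcript and a change in its amount per cell cannot be told apart.

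The partners of Tlr2 differed from each other in level. Tlr6, which pairs with Tlr2 for diacylated lipopeptides, had 3.1 and 5.4 in ICN and 3.24 and 3.92 in CTdel, against 1.88 and 0.63 in con. All ICN and CTdel values were higher than either con value, but the con libraries themselves were 1.25 ± 0.884 (SD, n = 2). The log2 change was 1.24 ± 0.38 (SE) in ICN and 1.08 ± 0.38 in CTdel (limma adjusted p = 0.259 and 0.347), so neither passed. In ICN it was 1.71 without ICN replicate 1 and 0.77 without ICN replicate 2. The ICN change was 0.51 within the table of replicate 1 and 1.97 within that of replicate 2. Without con replicate 1 the changes were 1.87 in ICN and 1.70 in CTdel, and without con replicate 2 they were 0.62 and 0.45. Tlr6 reached FPKM 1 in only 1 con library, so it met the filter through ICN and CTdel. Tlr1, which pairs with Tlr2 for triacylated lipopeptides, had 0.05 and 0 in ICN, 0.10 and 0.23 in CTdel, and 0.09 and 0.12 in con, and was not tested. The transcripts of Tlr1 and Tlr6 share runs of up to 229 bases. Of their 50-base words, 12.3% of those of Tlr6 and 14.8% of those of Tlr1 occur in the other gene. Reads from those stretches cannot be placed on sequence alone, so the values of both genes are uncertain in that part. The gene span of Tlr6 also overlaps the neighbouring gene Fam114a1, whose FPKM was at most 0.07 in the 6 libraries.

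**Figure D1:**
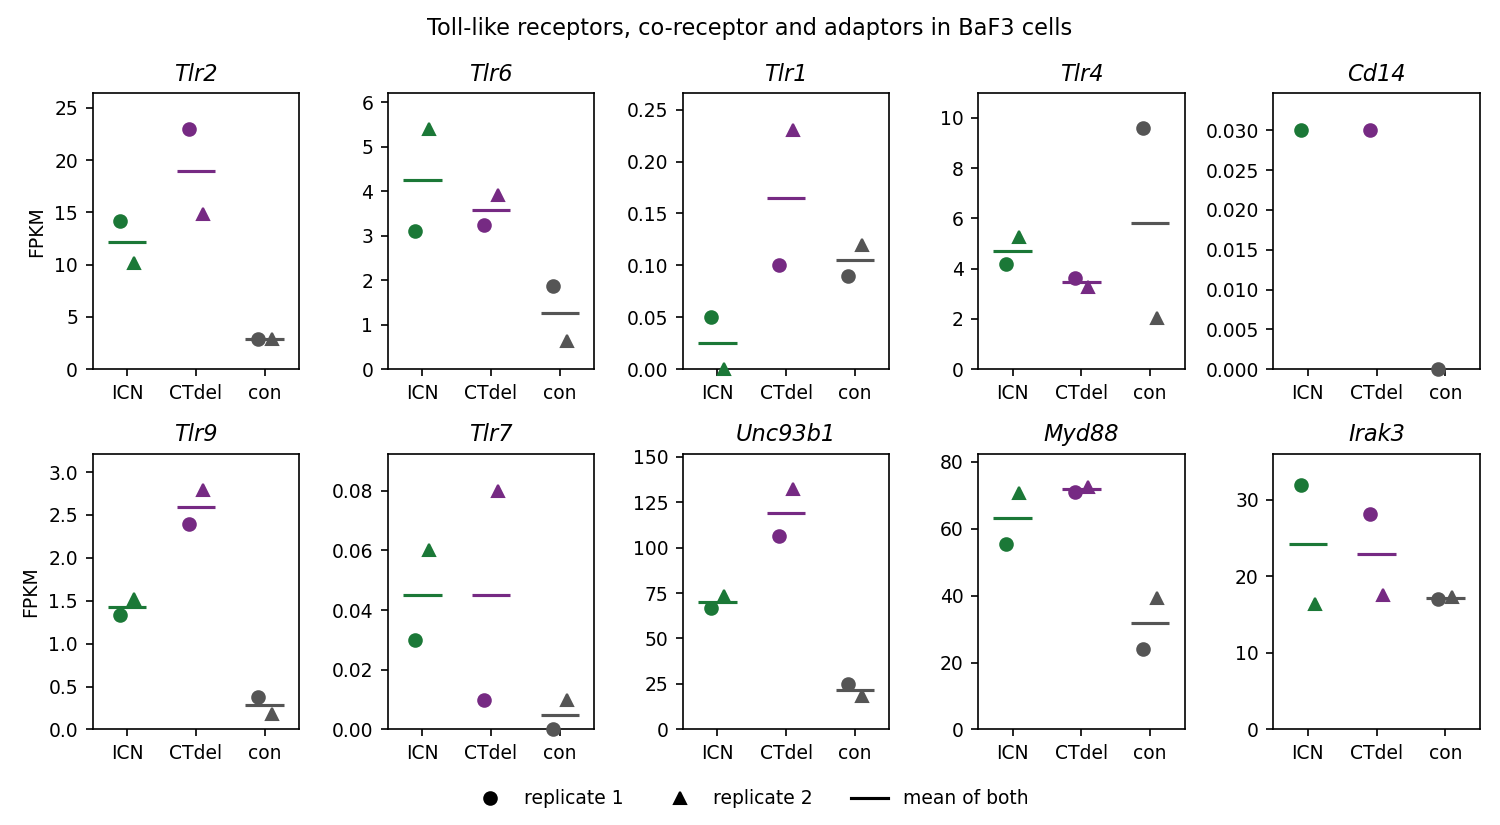
FPKM of the 10 genes in each library (y axis, linear from 0, own scale per gene) by group (x axis). Circles are replicate 1, triangles replicate 2 and bars the mean of both; Tlr2, Tlr6, Tlr9, Unc93b1 and Myd88 lie above con in all 4 ICN and CTdel libraries, while Tlr1, Tlr7 and Cd14 stay at or below 0.23.

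Tlr4, the lipopolysaccharide receptor, did not follow Tlr2. It had 4.18 and 5.25 in ICN and 3.64 and 3.28 in CTdel, against 9.60 and 2.04 in con (chromosome 4, 66827551 to 66846581). Both con libraries stood outside the range of the other 4, one above and one below. Its change was therefore opposite in the tables: −1.03 in replicate 1 and 1.04 in replicate 2 for ICN, and −1.19 and 0.49 for CTdel. The fitted change was 0.00 in ICN, with a 95% interval of −1.23 to 1.24, and −0.35 in CTdel, with one of −1.58 to 0.88 (limma adjusted p = 0.998 and 0.861). The interval for ICN leaves room for a change of over 2-fold in either direction. Cd14, the membrane protein that hands lipopolysaccharide to TLR4, had 0.03 in ICN, 0.03 in CTdel and 0 in con in the only table that lists it, values within 3 steps of the 0.01 to which FPKM were rounded. Ly96, which encodes MD-2, the subunit that binds lipopolysaccharide, had 9.87 and 14.9 in ICN and 6.42 and 4.02 in CTdel, against 7.65 and 3.25 in con. Its log2 change was 1.12 in ICN and 0.01 in CTdel (limma adjusted p = 0.294 and 0.997). The ICN change of Ly96 was 1.79 without ICN replicate 1 and 0.44 without ICN replicate 2.

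The order of the receptors by FPKM, which is per length and can be compared between genes, differed between libraries. In con replicate 1 Tlr4 led with 64.7% of the summed FPKM of the 6 receptors and Tlr2 had 19.5%. In con replicate 2 Tlr2 had 48.9% and Tlr4 34.99%. Tlr2 made up 62.0% and 45.4% in ICN and 71.0% and 59.1% in CTdel. The summed level was 22.9 and 22.4 in ICN and 32.4 and 25.2 in CTdel, against 14.8 and 5.83 in con, so all 4 libraries with an ICN plasmid stood above both con libraries. Next in level came Tlr4 and Tlr6, whose order changed between the replicates of ICN and of CTdel, then Tlr9, and last Tlr1 and Tlr7 near 0.

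**Figure D2:**
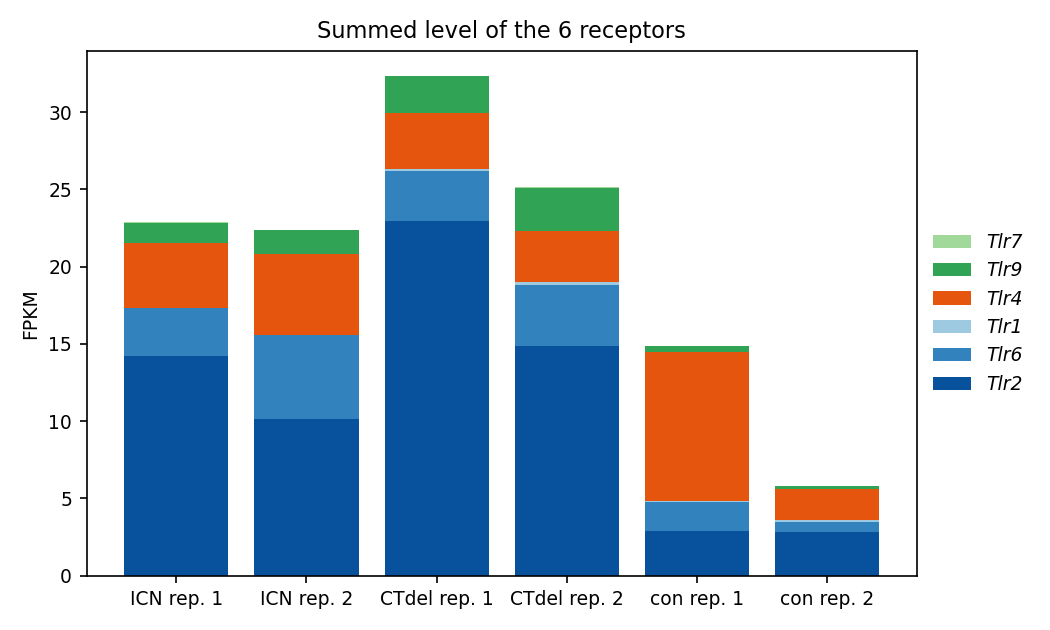
Stacked FPKM of the 6 receptors (y axis) in each library (x axis), coloured by gene. Tlr2 is the largest part in all ICN and CTdel libraries, and Tlr4 in con replicate 1, where it has 64.7%.

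Among the endosomal receptors Tlr9, the sensor of CpG DNA, had 1.33 and 1.52 in ICN and 2.39 and 2.79 in CTdel, against 0.38 and 0.18 in con (chromosome 9, 106222598 to 106226876). The 3 groups did not overlap, with CTdel highest and con lowest. The log2 change was 1.49 ± 0.25 (SE) in CTdel and 0.93 ± 0.25 in ICN (limma adjusted p = 0.0651 and 0.231), so neither passed. Tlr9 met the filter only through its levels in ICN and CTdel. With a pseudocount of 0.1 in place of 1 the changes were 2.87 and 2.05 (limma adjusted p = 0.0680 and 0.194). The CTdel change passed with CTdel and con fitted alone (limma adjusted p = 0.0100). With a CTdel or con library left out, it did not pass and lay between 1.31 and 1.67. Tlr7, the sensor of single-stranded RNA, had 0.03 and 0.06 in ICN, 0.01 and 0.08 in CTdel, and 0 and 0.01 in con, close to the rounding step, and was not tested.

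Unc93b1, which escorts Tlr7 and Tlr9 to endolysosomes, had FPKM 66.6 and 73.4 in ICN and 106 and 132 in CTdel, against 25.2 and 18.6 in con (chromosome 19, 3935158 to 3949340). The groups did not overlap, and CTdel was highest. Unc93b1 rose in CTdel by 2.40 ± 0.25 (SE), with a 95% interval of 1.79 to 3.01 (limma adjusted p = 0.0205), and with both forms together by 2.02 ± 0.21 (limma adjusted p = 0.0275). In ICN the change was 1.64 ± 0.25 (SE; limma adjusted p = 0.120). The CTdel call was lost without CTdel replicate 2 (limma adjusted p = 0.0604), and the call for both forms without con replicate 2 (0.0656). The ICN change passed without ICN replicate 1 (limma adjusted p = 0.00618) or 2 (0.0392) and without CTdel replicate 1 (0.0470) or 2 (0.0465). Its level stood at the 92.7th and 93.6th percentile of the 16799 genes in both tables in ICN and at the 95.8th and 96.9th in CTdel, against the 79.6th and 73.5th in con. Unc93b1 exceeded Tlr9 by 50.05 and 48.3 times in ICN and 44.4 and 47.3 times in CTdel, against 66.3 and 104 times in con, so transcripts of the transport protein far outnumbered those of the receptor in every library.

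Myd88, the adaptor that links the receptors to IRAK kinases, had 55.6 and 70.8 in ICN and 71.0 and 72.5 in CTdel, against 24.1 and 39.3 in con (chromosome 9, 119335934 to 119340018). All 4 libraries with an ICN plasmid were above both con libraries, and the CTdel libraries averaged 71.7 ± 1.01 (SD, n = 2). The log2 change was 1.0 ± 0.23 (SE) in ICN and 1.19 ± 0.23 in CTdel (limma adjusted p = 0.190 and 0.1005), so neither passed. In CTdel it passed with CTdel and con fitted alone (limma adjusted p = 0.00996). With a CTdel or con library left out, the CTdel change did not pass and lay between 0.95 and 1.44. Irak3, which dampens signalling below Myd88, had 31.9 and 16.4 in ICN and 28.1 and 17.6 in CTdel, against 17.0 and 17.3 in con (chromosome 10, 120141648 to 120202130). Only the replicate 1 libraries of ICN and CTdel stood apart from con, by 0.87 and 0.69 on the log2 scale, while replicate 2 differed by −0.07 and 0.02. The fitted change was 0.40 in ICN, with a 95% interval of −0.28 to 1.09, and 0.36 in CTdel, with one of −0.33 to 1.04 (limma adjusted p = 0.508 and 0.717). Without con replicate 1 it was −0.00 and −0.04. Irak3 overlaps the noncoding genes Gm34545, Gm40781 and Gm38500, and whether counting used strand is not known here.

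**Figure D3:**
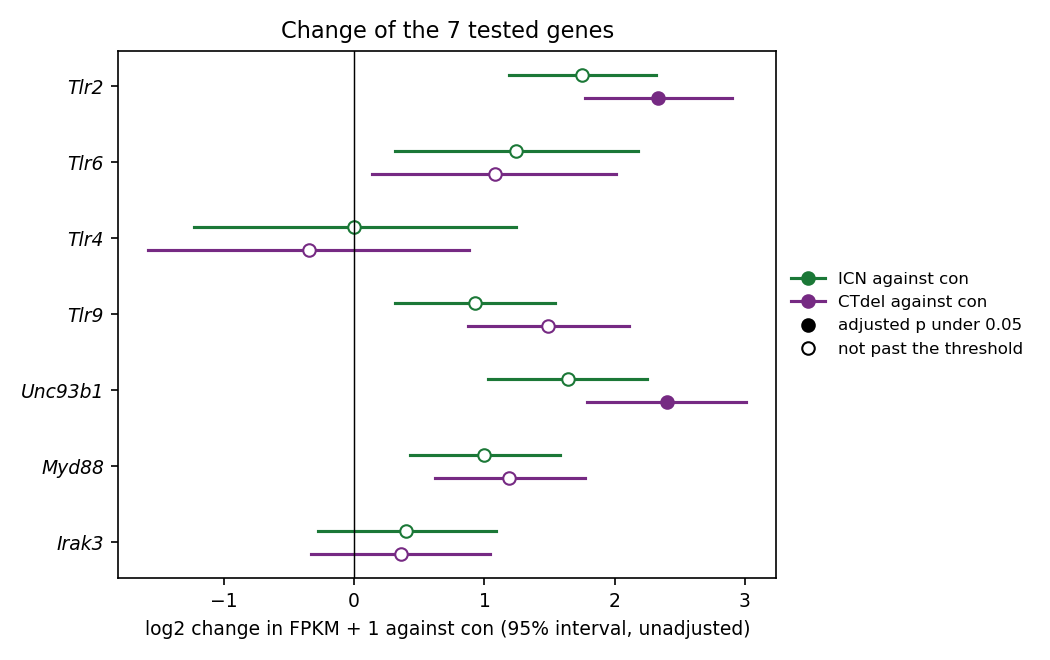
Log2 change in FPKM + 1 (x axis) of the 7 tested genes (rows) in ICN and in CTdel against con, with unadjusted 95% intervals from limma. Filled points passed an adjusted p of 0.05: Tlr2 (2.33) and Unc93b1 (2.40), both in CTdel.

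Of the 7 tested genes, 2 rose and 0 fell in CTdel, where 1.3% of all 11050 tested genes rose and 0.109% fell. With both forms together 2 rose and 0 fell (1.01% and 0.0995% of all tested genes, 1.11% in either direction). In ICN limma called 0 of the 7, against 0.0362% of all tested genes called higher and 0% called lower. At an unadjusted p under 0.05, 5 of the 7 stood out in ICN (15% of all tested genes) and 5 in CTdel (11.8%). The filter bears on these counts, on those without overlap and on the medians: Tlr9 was below FPKM 1 in both con libraries and Tlr6 in 1 of them, so both were tested through the groups where they are high, while Tlr1 and Tlr7 were left out. Among all 11050 tested genes 397 were below 1 in both con libraries and 475 in 1 of them. The counts over all genes depended on single libraries. In ICN every library left out raised the count of 4, to between 11 (without con replicate 2) and 1470 (without ICN replicate 1). In CTdel the count of 156 became 729 and 731 without ICN replicates 1 and 2. For both forms the count of 123 ran from 48 without con replicate 2 to 1240 without ICN replicate 1. Without the filter on low values, which added genes near 0 to the test, limma called 0 of all genes in CTdel (1592 at an unadjusted p under 0.05), and Tlr2 and Unc93b1 lost their calls (limma adjusted p = 0.139 for each). Libraries did not overlap and lay above con for 5 of 7 genes in ICN (22.7% of all tested genes) and for 6 of 7 in CTdel (18.3%), where Irak3 joined with 17.6 against 17.3 at the closest pair. All 4 libraries of both forms lay above con for 5 of 7 (12% of all tested genes). The median change of the 7 genes was 1.0 in ICN and 1.19 in CTdel, beside 0.00 and −0.06 over all tested genes. The comparisons of ICN and CTdel share the con libraries.

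**Figure D4:**
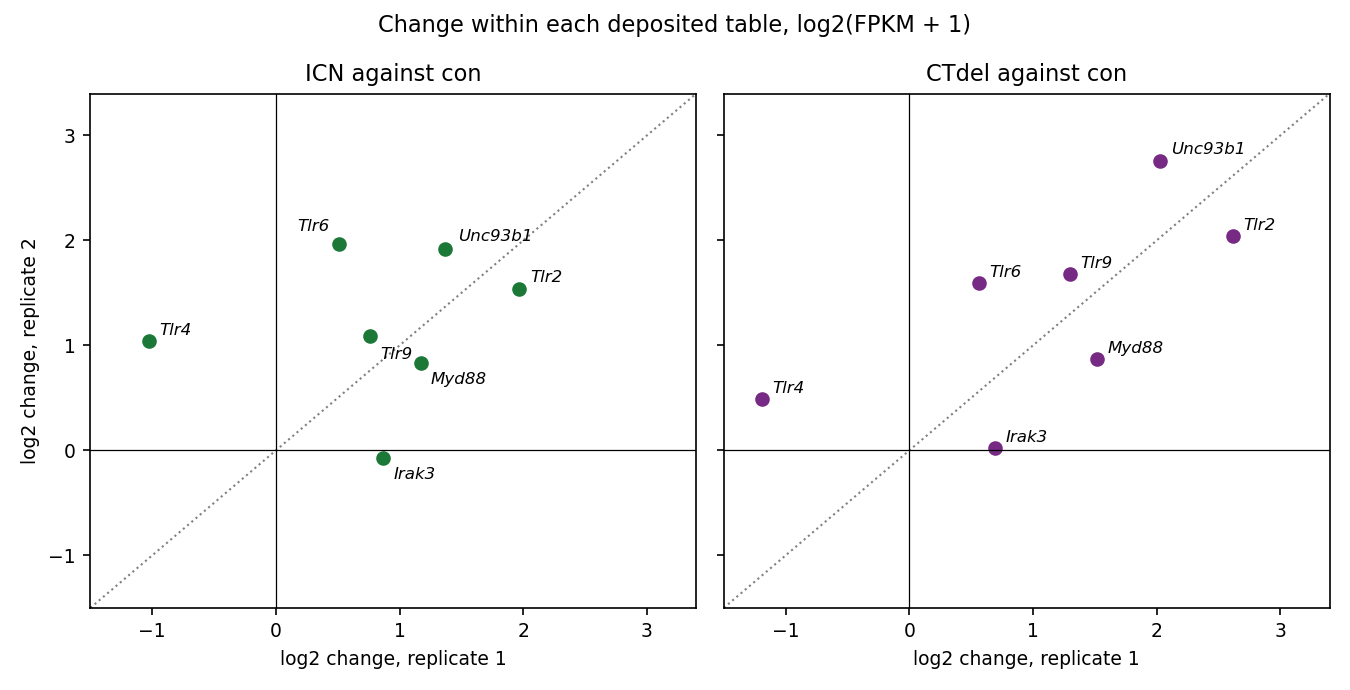
Log2 change in FPKM + 1 against con within the table of replicate 1 (x axis) and within that of replicate 2 (y axis) for the 7 tested genes, in ICN and in CTdel. The dotted line marks equal changes; Tlr2, Tlr6, Tlr9, Unc93b1 and Myd88 are above 0 in both tables, and Tlr4 is below 0 in replicate 1 and above 0 in replicate 2.

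The direct comparison of CTdel with ICN called 0 of the 7 genes in limma, and 2 of all 11050 tested genes, both lower in CTdel (0.0181%). Without ICN replicate 1 the count over all genes was 891. At an unadjusted p under 0.05 there were 2 of the 7, Tlr2 and Unc93b1 (7.13% of all tested genes). Unc93b1 was 106 and 132 in CTdel, against 66.6 and 73.4 in ICN, a difference of 0.75 with a 95% interval of 0.14 to 1.36 (limma adjusted p = 0.663). For Tlr2 the difference was 0.58, with an interval of 0.02 to 1.15 (limma adjusted p = 0.695), and for Tlr9 it was 0.56, with one of −0.05 to 1.18 (limma adjusted p = 0.705). Tlr6, Tlr4, Myd88 and Irak3 differed by −0.17, −0.35, 0.19 and −0.04, none past the threshold. CTdel libraries lay above both ICN libraries for 4 of the 7 genes, Tlr2, Tlr9, Unc93b1 and Myd88 (15.6% of all tested genes). A larger change in CTdel than in ICN was thus not established for any of the 7.

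The pathway around the 10 genes was described with 5 lists. Of the 6 other Toll-like receptors, 0 reached the test. Tlr3, the sensor of double-stranded RNA, came nearest, with 0.46 and 1.23 in ICN and 0.33 and 0.42 in CTdel, against 0.09 and 0.06 in con, while Tlr5 and Tlr13 stayed at or below 0.53. Of the 12 co-receptors, chaperones and transport factors 9 were tested and 0 passed in ICN or CTdel by limma (0.0362% and 1.41% of all tested genes). Their median change was 0.10 and 0.11. In each form 1 of the 9 had an unadjusted p under 0.05, close to the share of all tested genes (15% in ICN and 11.8% in CTdel). Hsp90b1, the chaperone gp96 that folds Toll-like receptors, had 201 and 126 in ICN and 192 and 198 in CTdel, against 209 and 275 in con (log2 change −0.59 in ICN and −0.30 in CTdel, limma adjusted p = 0.395 and 0.790). Nrros, an endoplasmic reticulum protein, had 91.2 and 103 in CTdel, against 66.7 and 25.3 in ICN (log2 change 1.21, limma adjusted p = 0.658). This difference was 1.93 without ICN replicate 1 and 0.50 without ICN replicate 2.

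Among 22 adaptors, kinases and transcription factors downstream of the receptors, 2 rose and 0 fell in CTdel (1.3% and 0.109% of all tested genes). In ICN 0 passed by limma (0.0362% of all tested genes). At an unadjusted p under 0.05 there were 8 of the 22 in each form (15% of all tested genes in ICN and 11.8% in CTdel). Peli1, a ubiquitin ligase of Toll-like receptor signalling, had 66.8 and 45.5 in ICN and 140 and 97.0 in CTdel, against 16.2 and 9.31 in con. It rose in CTdel by 3.14 ± 0.20 (SE; limma adjusted p = 0.0135) and with both forms together by 2.61 (limma adjusted p = 0.0170). In ICN the change was 2.07 (limma adjusted p = 0.0737). Ikbke, the kinase IKK-epsilon, had 10.3 and 10.7 in ICN and 27.4 and 15.3 in CTdel, against 5.85 and 3.52 in con. It rose in CTdel by 1.95 ± 0.27 (SE; limma adjusted p = 0.0364), a call lost without CTdel replicate 1 (limma adjusted p = 0.174), without con replicate 1 (0.0672) and without con replicate 2 (0.0956). Irf7, an interferon regulatory factor that acts below Myd88, had 254 and 455 in ICN and 367 and 402 in CTdel, against 147 and 34.4 in con (log2 change 2.24 and 2.41, limma adjusted p = 0.246 and 0.200). The IRAK kinase genes of the list differed from con by 0.03 (Irak1), 0.69 (Irak2) and 0.13 (Irak4) in ICN and by 0.28, 1.20 and 0.55 in CTdel, none past the threshold. The adaptors Tirap, Ticam1 and Ticam2 differed by 0.10, 0.15 and 0.17 in ICN and by −0.10, 0.12 and 0.60 in CTdel, also short of it. Ticam2 was below FPKM 1 in both con libraries, so it was tested through ICN and CTdel. Over the list changes ran from −0.60 to 2.24 in ICN and from −0.58 to 3.14 in CTdel. The median of the list was 0.23 in ICN and 0.28 in CTdel.

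Of 8 brakes on the pathway 6 were tested and 0 passed in either form by limma (0.0362% of all tested genes in ICN and 1.41% in CTdel). At an unadjusted p under 0.05 there were 2 in ICN and 3 in CTdel (15% and 11.8% of all tested genes). Tnfaip3, the ubiquitin editor A20, had 12.5 and 14.5 in ICN and 17.4 and 4.76 in CTdel, against 3.75 and 0.77 in con (both forms together 2.07, limma adjusted p = 0.0939). Tnfaip3 reached FPKM 1 in only 1 con library, so it met the filter through ICN and CTdel. Socs1, a suppressor of cytokine signalling, had 9.92 and 8.20 in ICN and 8.60 and 6.32 in CTdel, against 16.7 and 16.1 in con (both forms together −0.93, limma adjusted p = 0.0894). Both passed for the 2 forms together without ICN replicate 1 (limma adjusted p = 0.000126 for Tnfaip3 and 0.0198 for Socs1) or ICN replicate 2 (0.00194 and 0.0336). Tnfaip3 also passed without CTdel replicate 1 (0.0484) or 2 (0.0126).

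Of 16 genes that ligands of these receptors raise in macrophages 11 were tested. By limma 0 passed in ICN or CTdel (0.0362% and 1.41% of all tested genes), with 6 and 8 at an unadjusted p under 0.05 (15% and 11.8%). All 11 had a positive change in both forms, as did 5539 of the 11050 tested genes in ICN and 4656 in CTdel, and the medians were 1.77 and 2.03. The filter on low values favoured that sign: Il1a, Il1b, Cxcl2 and Ccl3 were below FPKM 1 in both con libraries and Ccl4 and Acod1 in 1 of them, so they were tested through ICN and CTdel, and genes low in all libraries were left out. The replicates also differed, since the median was 1.65 and 0.54 in replicates 1 and 2 of ICN and 2.96 and 0.38 in those of CTdel. Acod1, which makes itaconate, had 24.8 and 9.26 in ICN and 51.7 and 3.36 in CTdel, against 1.02 and 0.11 in con (both forms together 3.39, limma adjusted p = 0.0618). It passed with a pseudocount of 0.1 (limma adjusted p = 0.0249) and without ICN replicate 1 (0.00104), ICN replicate 2 (0.00305), CTdel replicate 1 (0.00267) or CTdel replicate 2 (0.000294). Cd80, a costimulatory ligand, had 18.2 and 37.3 in ICN and 29.7 and 12.7 in CTdel, against 5.11 and 2.10 in con (both forms together 2.44, limma adjusted p = 0.0878). It too passed without ICN replicate 1 (limma adjusted p = 3.57e-05), ICN replicate 2 (0.00057), CTdel replicate 1 (0.0302) or CTdel replicate 2 (0.00929). Nos2, Ptgs2 and Cd40, other genes of this list, stayed at or below 0.24 in all 6 libraries.

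**Figure D5:**
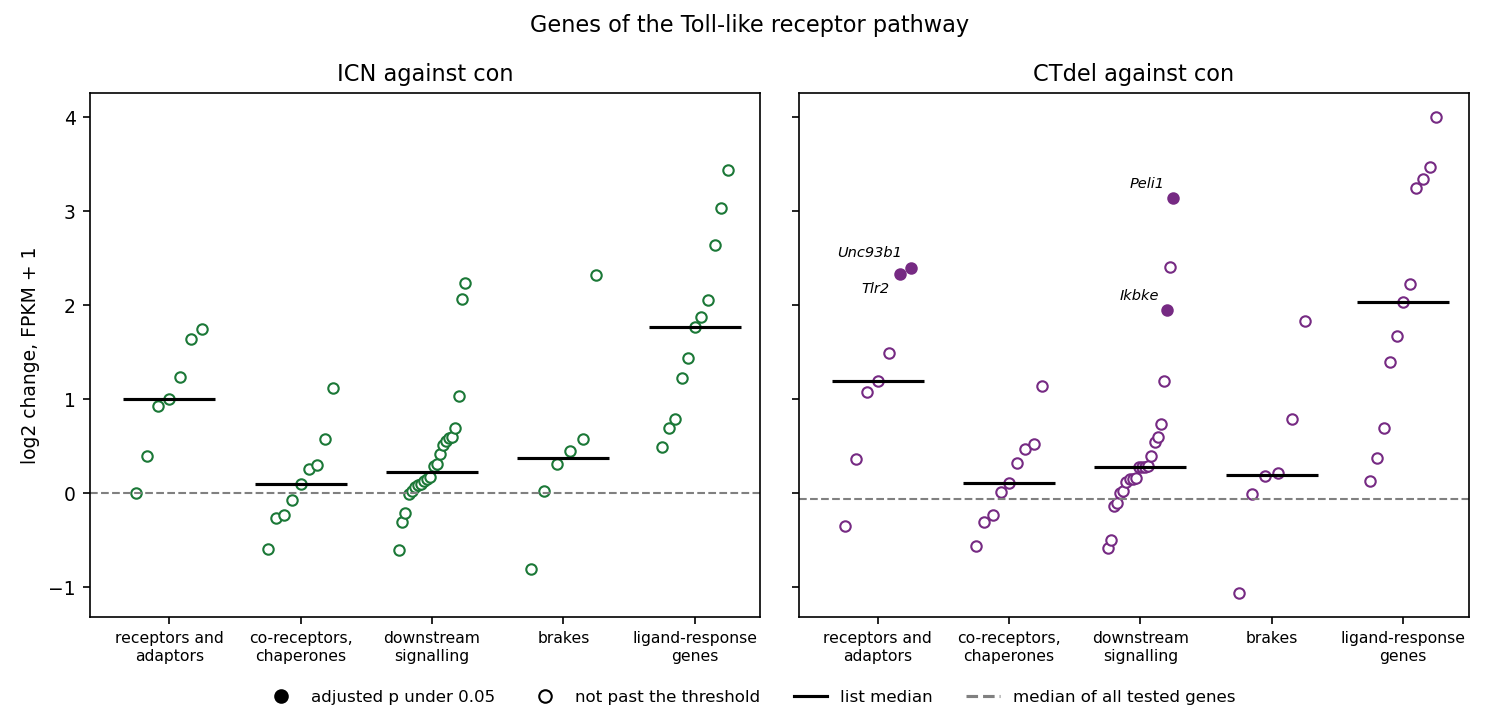
Log2 change in FPKM + 1 (y axis) of each tested gene in the lists of the pathway (x axis), for ICN and CTdel against con. Bars are list medians and the dashed line the median of all tested genes; filled points passed an adjusted p of 0.05, which are Tlr2, Unc93b1, Peli1 and Ikbke in CTdel.

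Markers of other cell types were read beside these genes. Of 8 macrophage and monocyte markers 7 were in both tables, and their summed FPKM was 92.4 and 38.8 in ICN and 101 and 73.4 in CTdel, against 91.2 and 46.9 in con, most of it Adgre1. Of the 6 tested, 1 passed in CTdel, where 1.3% of all tested genes rose and 0.109% fell. In ICN 0 passed by limma (0.0362% of all tested genes). Csf1r and Itgam were below FPKM 1 in both con libraries, so they were tested through ICN and CTdel. The marker that passed, Cd68, rose in CTdel (log2 change 1.41, limma adjusted p = 0.0364). The members did not move alike. Csf1r had 3.34 and 0.10 in ICN and 7.96 and 1.72 in CTdel, against 0.05 and 0.01 in con. Fcgr1 had 3.21 and 3.85 in ICN and 3.09 and 2.57 in CTdel, against 20.0 and 5.61 in con (log2 change −1.38 and −1.62, limma adjusted p = 0.280 and 0.216). Lyz2 had 5.08 and 0.88 in ICN and 3.43 and 1.21 in CTdel, against 1.72 and 3.3 in con, and Mrc1 stayed at or below 0.10. The 6 dendritic cell markers in both tables summed to 6.56 and 2.15 in ICN and 33.5 and 22.7 in CTdel, against 0.56 and 0.37 in con. Itgax had 5.97 and 1.38 in ICN and 32.5 and 22.5 in CTdel, against 0.02 and 0 in con. It thus made up nearly all of the CTdel sums and little or none of the con sums. Flt3 and Siglech stayed at or below 0.13. Spi1, the myeloid and B-cell factor PU.1, had 155 and 139 in ICN and 281 and 463 in CTdel, against 39.1 and 47.7 in con. Spi1 rose in CTdel (log2 change 3.03, limma adjusted p = 0.0170) and with both forms together (2.39, limma adjusted p = 0.0272). In ICN it did not pass (1.74, limma adjusted p = 0.120). The 7 neutrophil markers summed to 19.9 and 32.8 in ICN and 7.34 and 20.7 in CTdel, against 16.1 and 91.6 in con, and Elane stayed at or below 0.06. T cell markers summed to at most 2.46 in any library. Of the mast cell and basophil markers 1, Cpa3, was in both tables, with 10.1 and 2.34 in ICN and 4.56 and 1.64 in CTdel, against 26.7 and 6.14 in con, and fell in CTdel (log2 change −1.88, limma adjusted p = 0.0437). Fibroblast and endothelial markers summed to 49.2 and 40.3 in ICN and 47.1 and 44.1 in CTdel, against 63.2 and 52.2 in con, nearly all of it Pecam1. The part of these markers in the changes of Tlr2, Unc93b1 and the other genes was not tested.

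Across the 6 libraries, after the mean of each table was taken out, Unc93b1 and Tlr9 had the closest pattern among the 7 tested genes (Pearson's r of 0.997), followed by Myd88 and Tlr2 (0.987). Tlr4 had negative r with 5 of the other 6 genes, from −0.786 with Irak3 to −0.119 with Unc93b1, and 0.340 with Tlr6. Among all tested genes 9930111J21Rik2 (r = 0.9986) and Malt1, a protease on the path to NF-kB (0.9983), were nearest to Tlr2, and Sec31b (0.9998) and Pira1 (0.9993) to Tlr9. Cabp1 (0.9999) and Tmem181b-ps (0.9969) were nearest to Tlr4, and Ss18l1 (0.9990) and Naip2 (0.9988) to Tlr6. With 6 points that share groups and tables such values are common: 437 genes had r above 0.9 with Tlr2 and 353 with Tlr4. They are given as a description of these libraries.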

How the data were processed

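The data were FPKM per gene of 6 libraries of polyadenylated RNA, prepared, per the labels' protocols, with an MGIEasy mRNA kit. The authors deposited FPKM in 1 table per replicate number, per the file headers. Mapping and quantification tools named in the submitters' processing notes are HISAT2, Bowtie2 and RSEM, without versions or roles; their builds are mm10 and hg19. The tables held 17877 and 17868 genes, 16799 in both; 26 symbols that had turned into dates were restored by Gene ID. FPKM keep no read totals, so no counting interval was computed. Coordinates and promoters came from RefSeq tables for GRCm38.p6.

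Tests used limma 3.58.1 (R 4.3.3, 2-sided, intensity trend) on log2 values after 1 was added to the FPKM, for 11050 genes present in both tables that reached FPKM 1 in 2 or more libraries. Terms were the 3 groups and the table, leaving 2 residual degrees of freedom, and p-values were adjusted by Benjamini-Hochberg over all tested genes. The 10 genes and the lists were chosen with earlier results of these data known. Beside the 10, the text names from each list the called genes and those with the smallest p in any comparison, and the genes nearest in pattern to each tested receptor; the others named (among them Tlr3, Hsp90b1, Spi1, Csf1r) were chosen after their values were seen. The fit was also run on simulated data with independent normal errors, which cannot show how it behaves where single libraries differ as these do.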

Additional observations from a re-analysis of the deposited data

How the results depend on the processing

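Over the alternatives, 313 of 357 values of the 7 tested genes kept direction and side of the threshold, 24 passed newly, 6 lost their call and 14 turned. Without a filter on low values 0 genes passed in any comparison, and Tlr2 and Unc93b1 had adjusted p of 0.139 in CTdel and 0.161 for both forms. With the compared groups fitted alone, 162 genes passed in ICN, among them Tlr2 (adjusted p = 0.0313) and Unc93b1 (0.0450), and 730 in CTdel, among them Tlr9 (0.0100) and Myd88 (0.00996). A pseudocount of 0.1 left 0 in CTdel against ICN. Leaving out a library gave 11 to 1470 genes in ICN, 109 to 731 in CTdel, 2 to 891 in CTdel against ICN and 48 to 1240 for both forms. Such a fit leaves 1 residual degree of freedom, and takes a lone library to scatter as the rest do. Where the library left out is of the group not compared, the changes equal those of the compared groups fitted alone. Tlr4 turned in ICN with quantile normalization (−0.14). With a library left out, changes that turned ran, for Tlr4, from −0.94 to 0.94 in ICN, −1.29 to 0.59 in CTdel, −0.97 to 0.26 in CTdel against ICN and −1.11 to 0.77 for both forms. For Irak3 they ran from −0.00 to 0.81 in ICN, −0.04 to 0.76 in CTdel, −0.35 to 0.26 in CTdel against ICN and −0.02 to 0.78 for both forms. In CTdel against ICN they ran from −0.64 to 0.31 for Tlr6 and −0.05 to 0.43 for Myd88. Except where a setting changed the genes or libraries fitted, the cause was not tested.

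The table term is also the replicate block. Deviations of same-numbered libraries correlated over genes by −0.10 (ICN and con), 0.33 (CTdel and con) and 0.24 (CTdel and ICN), so the numbers are not shown to pair the samples. Without the replicate block 3 genes passed in ICN, 130 in CTdel, 2 in CTdel against ICN and 132 for both forms; Tlr9 passed in CTdel (adjusted p = 0.0481). It changed no other call of the 7 genes. Tlr9 also passed there without the intensity trend (0.0424). Levels near the rounding step of 0.01 FPKM (Tlr7, Cd14), or as low as those of Tlr1 (at most 0.23), allow no comparison.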
